A study of Mus musculus with 7 samples.

Results

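Cadherins are calcium-dependent adhesion proteins of the cell surface, and 6 of them were followed here: Cdh1 (E-cadherin), Cdh2 (N-cadherin), Cdh4 (R-cadherin), Cdh11 (OB-cadherin), Cdh13 (T-cadherin) and Cdh15 (M-cadherin). They are 6 of the 23930 genes in the deposited table and were found in it by symbol, each with a single amplicon. The genes were selected by name with results of the comparison between the groups already known, so their differences between groups are described here. Where a fit called one of them, nothing is read from the call. Cdh1, Cdh2, Cdh4 and Cdh15 are classical cadherins, and Cdh11 belongs to the type II branch of that family. Cdh13 is tied to the membrane by a lipid anchor and lacks the tail that binds catenins, so it is not a classical cadherin by structure.

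Bulk RNA was measured in Pax7-GFP+ cells sorted from hind leg muscle of mice kept in normocapnia (NC1 through NC3, n = 3) or hypercapnia (HC1 through HC4, n = 4). All carried an inducible Pax7-GFP reporter, in which a Cre recombinase made by Pax7-expressing cells is switched on by tamoxifen and removes a stop before a green fluorescent protein, so that cells which expressed Pax7 at that time, and their progeny, are marked. All were given tamoxifen at 12 weeks of age, spent 4 weeks in room air or in a chamber with 10% CO2 and were collected at 16 weeks. The methods add, for both groups, an injury with cardiotoxin 3 days before collection, which the sample labels do not mention. The strain is C57/B6 in the growth notes, whereas in the genotype labels it counts up from C57BL/6 in NC1 to C57BL/12 in HC4. The labels do not say whether each library is a separate mouse, so any p-value given here measures the spread between these libraries, which may be technical.

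Classical cadherins bind the same kind of molecule on a neighboring cell, and through their tails they bind β-catenin and p120-catenin, which link them to actin and set how long they stay at the surface. In resting muscle the satellite cell lies between the myofiber and the basal lamina. M-cadherin and N-cadherin sit on the side that faces the myofiber, where they hold the cell in place, and M-cadherin is a standard marker of the satellite cell.

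Library totals ran from 14527445 to 23388710 reads, and 1 read was worth 0.0428 to 0.0688 RPM, the unit of the table, in which the reads of a library are scaled to sum to 1000000. Markers of satellite cells and myoblasts were present in every library, but their level varied widely. Pax7, the transcription factor that defines these cells, stood at 268 RPM in NC1, 8.25 in NC2 and 4.34 in NC3, and at 21.5, 20.1, 79.5 and 59.7 RPM in HC1 through HC4. NC1 thus lay above every hypercapnia library and the other two normocapnia libraries lay below them. Summed over 9 measured satellite and myoblast markers, the level was 3392, 208 and 148 RPM in NC1 through NC3 and 347, 285, 1108 and 854 RPM in HC1 through HC4. The sum of 10 macrophage markers was larger in every library, 11447 to 33390 RPM in normocapnia and 18732 to 23655 in hypercapnia, led by Lyz2. The same libraries carried 96.7 to 629 RPM of 9 endothelial markers and 1575 to 3791 RPM of 10 fibro-adipogenic markers. The other sums were 248 to 5076 RPM for myofiber, 135 to 2009 for pericyte and smooth muscle, 212 to 711 for Schwann cell, 177 to 1193 for dendritic cell, 82.5 to 331 for neutrophil and 0.343 to 16.4 for erythroid markers. None of the 11 marker lists had groups that did not overlap (exact permutation tests over 35 splits, two-sided, p = 0.229 to 0.971, smallest possible 0.0286). Of the 100 single markers, 3 were called in limma (fold change of more than 1.5, unadjusted p below 0.05, met by 2.57% of all genes), all higher in hypercapnia and with groups that did not overlap. They were Adgre1 of macrophages (70.5 to 149 RPM in normocapnia, 151 to 429 in hypercapnia, log2 difference 1.31), Mmp8 of neutrophils (7.54 to 17.0 and 27.0 to 34.99 RPM, 1.25) and Cspg4 of pericytes (3.76 to 9.41 and 10.5 to 16.1 RPM, 0.79). In such bulk samples, fewer cells of a type and less RNA per cell cannot be told apart.

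Cdh15 encodes M-cadherin, the cadherin of satellite cells and fusing myoblasts. Its level was 310 RPM in NC1, 8.12 in NC2 and 6.54 in NC3, and 37.6, 31.5, 85.7 and 63.6 RPM in HC1, HC2, HC3 and HC4. The highest library held 47.4 times the level of the lowest, and both extremes were normocapnia libraries. The 4 hypercapnia libraries fell between them, so the groups overlapped in full. The mean was 108 ± 175 RPM in normocapnia (SD, n = 3) and 54.6 ± 25.0 in hypercapnia (SD, n = 4). On the log2(RPM + 1) scale, which gives the high library less weight, the difference had the opposite sign, 0.89 with an SE of 1.44. Without NC1 this difference was 2.63, and without NC3 it was -0.050. On whole reads it was -0.76 in edgeR and -0.80 in DESeq2.

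Cdh15 is also the only one of the 6 with an entry in the RefSeq promoter table, which gives 250 bases before and 50 after the start of a gene in build GRCm38.p6. The stretch lies on the plus strand at chr8:122848124-122848423 and is shown because the levels of Cdh15 and of the satellite and myoblast markers put the libraries in the same order. The E-box, CANNTG, is the motif read by Myod1 and other basic helix-loop-helix factors, and it is the same on both strands. The E-boxes are in capitals.
Cdh15: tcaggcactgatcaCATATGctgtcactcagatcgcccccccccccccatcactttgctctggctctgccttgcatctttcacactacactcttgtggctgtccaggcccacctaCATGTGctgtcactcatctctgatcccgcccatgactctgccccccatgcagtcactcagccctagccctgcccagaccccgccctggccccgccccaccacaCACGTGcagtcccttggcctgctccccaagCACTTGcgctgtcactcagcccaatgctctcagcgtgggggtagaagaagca
It holds 4 E-boxes, and none of them is CAGCTG, the form often bound by myogenic factors. Of 32851 promoter windows of this length, 72.3% hold an E-box, 6.49% hold at least 4, the median is 1, and 16.3% hold CAGCTG. A match of letters is a description and no evidence of binding. Cdh1, Cdh2, Cdh4, Cdh11 and Cdh13 have no entry.

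Cdh2 encodes N-cadherin, which satellite cells share with many other cells, among them neural and mesenchymal ones. It stood at 146 RPM in NC1, 5.94 in NC2 and 4.82 in NC3, and at 36.4, 36.1, 62.5 and 56.1 RPM in HC1 through HC4. As with Cdh15, NC1 was the highest library, NC2 and NC3 were the lowest, and all 4 hypercapnia libraries lay in between. The means were close, 52.4 ± 81.5 RPM in normocapnia (SD, n = 3) and 47.8 ± 13.6 in hypercapnia (SD, n = 4). The log2 difference was 1.39 with an SE of 1.23, and it was 2.90 without NC1. On whole reads, where the high library weighs more, it was 0.089 in edgeR and 0.054 in DESeq2.

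Cdh2 and Cdh15 moved together across the libraries. Pearson's r of their log2(RPM + 1) was 0.98 and Spearman's rho 1 over 7 libraries (exact permutation tests, two-sided, p = 0.000198 and 0.000397, adjusted over 15 pairs 0.00298 and 0.00595). Without NC2 and NC3, the libraries farthest from the median of Cdh2, r was 0.997. The ratio of Cdh2 to Cdh15 varied 2.43-fold, from 0.47 in NC1 to 1.15 in HC2, while the genes themselves varied 30.4-fold and 47.4-fold. Such a ratio compares libraries and does not say which transcript is more abundant, since each amplicon is copied with its own efficiency.

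**Figure D1:**
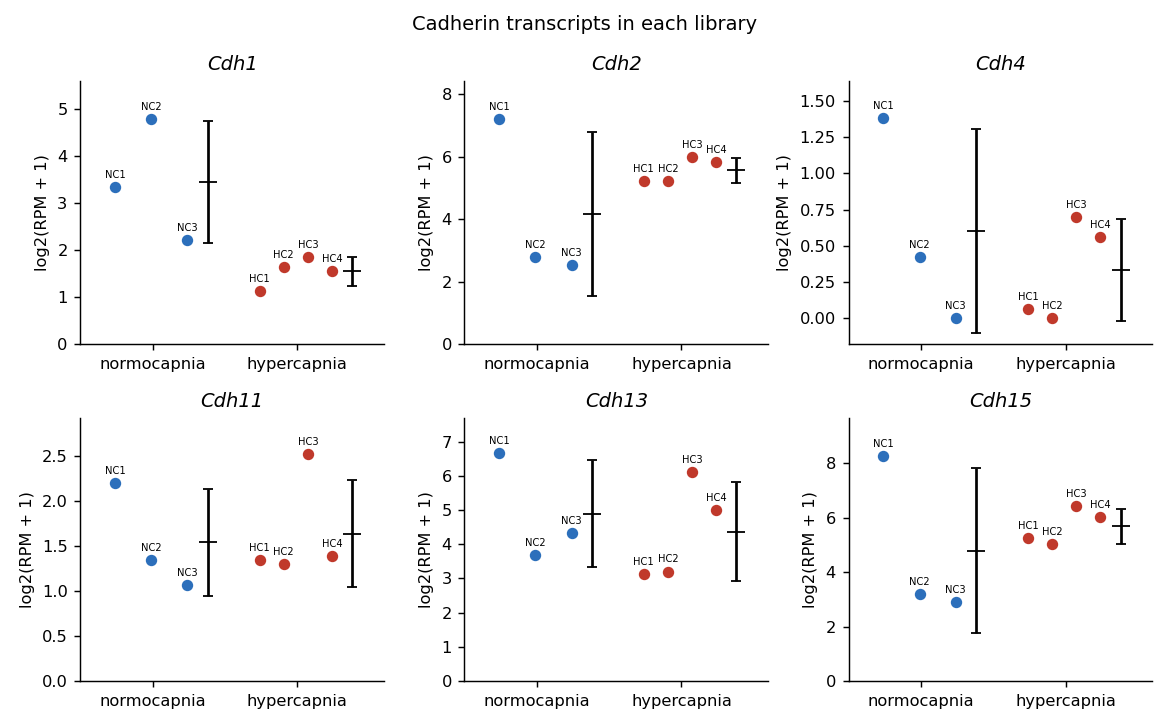
Level of each cadherin in each library, as log2(RPM + 1), with 3 normocapnia libraries in blue and 4 hypercapnia libraries in red. The black mark is the group mean with its SD. Cdh1 is the gene whose groups do not overlap, while for Cdh2 and Cdh15 NC1 lies above and NC2 and NC3 below all hypercapnia libraries.

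Cdh15 kept close to Pax7 as well. The ratio of Cdh15 to Pax7 was 1.16, 0.98 and 1.51 in NC1 through NC3 and 1.75, 1.57, 1.08 and 1.07 in HC1 through HC4, a spread of 1.78-fold. It was highest in HC1 and HC2, and the groups overlapped. For Cdh2 the ratio to Pax7 ran from 0.55 in NC1 to 1.80 in HC2, a spread of 3.29-fold, and HC1 and HC2 again stood above the other 5 libraries. The ratio to Myod1, the factor that commits these cells to muscle, varied 3.35-fold for Cdh15 and 2.71-fold for Cdh2. The ratio of Cdh2 to the summed satellite and myoblast markers was 0.043, 0.029 and 0.033 in NC1 through NC3. In HC1 through HC4 it was 0.105, 0.127, 0.056 and 0.066, so every hypercapnia library lay above every normocapnia library. For Cdh15 this ratio ran from 0.039 in NC2 to 0.110 in HC2, and the groups overlapped. These ratios were not tested. Cdh13 and Cdh1 did not keep to Pax7 in this way, with spreads of 12.2-fold and 98.8-fold.

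Against the summed satellite and myoblast markers, Cdh15 had r = 0.97 and rho = 1 (exact permutation tests, two-sided, p = 0.000198 and 0.000397, both 0.0131 after adjustment over 66 relations of 6 cadherins with 11 marker lists). Without NC1 and HC3, the libraries farthest from the median marker sum, r was 0.91. Cdh2 had r = 0.90 and rho = 1 (exact p = 0.00179 and 0.000397, adjusted 0.0262 and 0.0131), with r = 0.86 without the same pair. The order of the 7 libraries by either cadherin was the order by these markers, from NC3 and NC2 at the bottom to NC1 at the top. The satellite markers were not alone in this, nor were these cadherins. Cdh15 had r = 0.92 with the erythroid and 0.86 with the pericyte and smooth muscle markers (exact tests, adjusted p of r 0.0262 and 0.0489, of rho 0.0698 and 0.0625), and Cdh2 had 0.85 with the erythroid ones (adjusted p of r 0.0489, of rho 0.0698). With the satellite markers, r was 0.91 for Cdh4, 0.85 for Cdh13 and 0.81 for Cdh11 (exact tests, adjusted p of r 0.0445, 0.0618 and 0.0768). With 1 library left out, 0 (without NC1) to 6 relations had an adjusted p of r under 0.05, against 15 of 66. An exact test over fewer libraries has a larger smallest p, so this fall cannot be laid to any library. Over all ways of leaving out 1 library, r with the satellite markers kept between 0.93 and 0.98 for Cdh15 and between 0.87 and 0.95 for Cdh2.

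**Figure D2:**
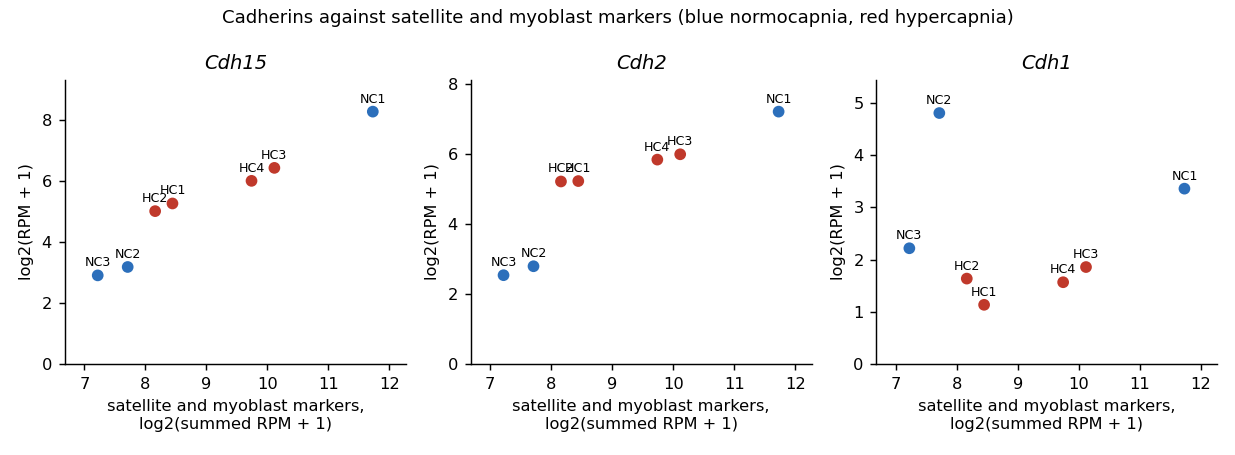
Cdh15, Cdh2 and Cdh1 as log2(RPM + 1) against the log2 of the summed RPM of 9 satellite and myoblast markers plus 1, with normocapnia libraries in blue and hypercapnia libraries in red. Cdh15 and Cdh2 climb with the markers through both groups (r = 0.97 and 0.90), while Cdh1 shows no such order (r = 0.00 to 2 decimals).

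Cdh1 encodes E-cadherin, the main cadherin of epithelia, which is also made by some immune cells. Its level was 9.23 RPM in NC1, 26.9 in NC2 and 3.65 in NC3, and 1.20, 2.11, 2.62 and 1.96 RPM in HC1 through HC4. Every hypercapnia library lay below every normocapnia library, the gap being from 3.65 to 2.62 RPM. The reads behind these values were 207, 628 and 53 in normocapnia and 28, 42, 42 and 29 in hypercapnia. The mean was 13.2 ± 12.1 RPM in normocapnia (SD, n = 3) and 1.97 ± 0.59 in hypercapnia (SD, n = 4). On the log2(RPM + 1) scale the difference was -1.91 with an SE of 0.62, 3.75-fold lower in hypercapnia as RPM + 1, a scale that understates the change of a low gene. The ratio of the group means in RPM, hypercapnia over normocapnia, was 0.149, and the log2 difference on whole reads was -2.81 in edgeR and -2.84 in DESeq2. The difference kept its sign without any 1 library, between -2.53 without NC3 and -1.24 without NC2.

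Cdh1 was 1 of 6 cadherins called in limma at these limits, which are those the study used, where 2.57% of all 23930 genes were called. Of all genes, 1.14% were called with a lower level in hypercapnia. Groups that did not overlap were found in 4.83% of all genes, and in 2.3% every hypercapnia library lay below every normocapnia library. Since the gene was listed with this contrast known, nothing is read from its passing. With p-values adjusted by Benjamini-Hochberg, 0 genes (0%) were left in limma, which had 1114 below 0.05 unadjusted, 0 in edgeR and 29 in DESeq2. Cdh1 was 1 of these 29, or of the 0.139% of genes that DESeq2 called after adjustment, while Cdh11 and Cdh13 were not, and DESeq2 gave no adjusted p for Cdh2, Cdh4 and Cdh15. Cdh1 dropped from the called genes in limma when NC1, HC1, HC2 or HC4 was left out, and when the replicate number entered the fit as a block. With NC1 left out, Cdh2 and Cdh15 were called as higher in hypercapnia, as were 6.25% of all genes.

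Of the 10 epithelial markers, 2 were at 0 throughout and none reached 3 RPM in any library. Krt5 and Krt14, the keratins of stratified epithelium, had 0 reads in all 7 libraries, which with 3 reads as the floor allows up to 0.128 to 0.207 RPM by counting error. Epcam, an adhesion protein found on most epithelia, had 0.892, 0 and 0.482 RPM in normocapnia and 0 to 0.339 RPM in hypercapnia. Krt18, a keratin of simple epithelium and the highest of the list by its mean, had 0 to 1.34 RPM in normocapnia and 0.553 to 2.91 in hypercapnia. The summed level of the 10 epithelial markers was 0.964 to 3.30 RPM in normocapnia and 1.71 to 8.13 RPM in hypercapnia, and its r with Cdh1 was -0.29. The part of epithelial cells in the level of Cdh1 was not tested. Across all 11 lists, r with Cdh1 ran from -0.29 to 0.34, and in none of them did the adjusted p of r or of rho fall under 0.05. The list nearest to Cdh1 was that of dendritic cells (r = 0.34), which was led by H2-Ab1, at 139 to 841 RPM in normocapnia and 80.6 to 395 in hypercapnia, and Itgax, at 33.0 to 216 and 46.2 to 108 RPM. Of the 10 members, 6 had a log2 difference above 0 and 4 below, from -0.62 for H2-Ab1 to 0.66 for Cd209a, and none was called. The part of dendritic cells in the level of Cdh1 was not tested, nor was that of the cells marked by Adgre1, Mmp8 and Cspg4.

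**Figure D3:**
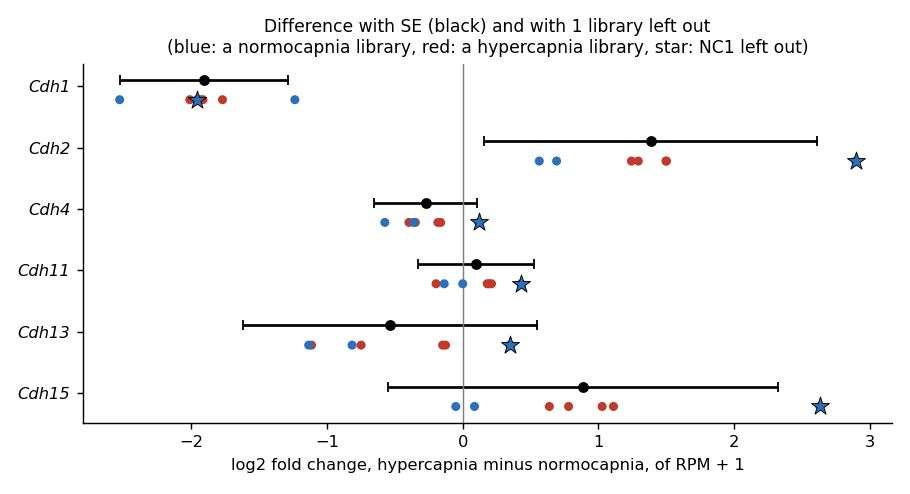
Difference between the groups for each cadherin, as log2 fold change of RPM + 1, hypercapnia minus normocapnia. Black points are values over 7 libraries with their SE, and colored points are values with 1 library left out (blue for a normocapnia library, red for a hypercapnia library, a star for NC1). Cdh1 lies below 0 throughout, from -2.53 to -1.24, while Cdh15 runs from -0.050 to 2.63.

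Cdh13 encodes T-cadherin, which binds adiponectin and low-density lipoprotein and is common on endothelium and smooth muscle. It was measured at 99.9 RPM in NC1, 11.9 in NC2 and 19.1 in NC3, and at 7.79, 8.19, 67.6 and 31.1 RPM in HC1 through HC4. NC1 and HC3 were the highest libraries and HC1 and HC2 the lowest, so the groups overlapped. The means were 43.6 ± 48.8 RPM (SD, n = 3) and 28.7 ± 28.1 RPM (SD, n = 4), and the log2 difference was -0.53 with an SE of 1.09, or 0.35 without NC1. HC3 and HC4, where Cdh13 was higher than in the other hypercapnia libraries, also held more endothelial marker RNA (629 and 453 RPM against 100 and 96.7), but NC1, with the most Cdh13, held 286 RPM of it. The pericyte and smooth muscle markers summed to 2009 RPM in NC1, 898 and 621 RPM in HC3 and HC4 and 135 to 314 RPM in the other 4 libraries, and r with Cdh13 was 0.88 (exact p = 0.0101, adjusted 0.0489; rho 0.75, adjusted 0.129), or 0.53 without NC1 and HC3. The r of Cdh13 was 0.91 with the dendritic cell markers (exact p = 0.00397, adjusted 0.0327; rho 0.89, adjusted 0.0625) and 0.81 with the endothelial ones (exact p = 0.0345, adjusted 0.0949; rho 0.82, adjusted 0.0804). Without HC3 and HC4, the r with the endothelial markers was 0.91, and without NC1 and HC2 the r with the dendritic cell markers was 0.79. Other lists came as close, with r of 0.85 for the satellite and for the erythroid markers and 0.82 for the fibro-adipogenic ones (adjusted p of r 0.0618, 0.0746 and 0.0974, exact tests). The part of these cells in the level of Cdh13 was not tested.

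Cdh11 encodes a type II cadherin of mesenchymal and bone-forming cells. It was low throughout, at 3.61 RPM in NC1, 1.54 in NC2 and 1.10 in NC3, and at 1.54, 1.46, 4.75 and 1.63 RPM in HC1 through HC4. NC1 and HC3 stood above the other 5 libraries, which lay between 1.10 and 1.63 RPM. The log2 difference was 0.10 with an SE of 0.43, and its sign turned without NC3 (-0.14), without HC3 (-0.20) and with quantile normalization (-0.23). The level rested on 16 to 81 reads a library. Its strongest relation was with the neutrophil markers, with r = 0.85 and rho = 0.96 (exact p = 0.000992 and 0.00278, adjusted 0.0218 and 0.0458), and r was 0.63 without NC3 and HC3. With the fibro-adipogenic markers, a mesenchymal cell type, r was 0.67.

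Cdh4 encodes R-cadherin, known from retina, brain and developing kidney and muscle. It was near or below the floor in most libraries, with 36, 8 and 0 reads in NC1 through NC3 and 1, 0, 10 and 7 reads in HC1 through HC4. In RPM this was 1.61, 0.342 and 0 in normocapnia and 0.043, 0, 0.625 and 0.474 in hypercapnia. NC1 was the only library above 1 RPM, and the 0 reads of NC3 and HC2 allow up to 0.207 and 0.151 RPM. The log2 difference was -0.27 with an SE of 0.38, 0.12 without NC1, and on whole reads -1.14 in edgeR without a filter and -1.13 in DESeq2. Cdh4 had r = 0.98 with the dendritic cell markers and 0.97 with the pericyte and smooth muscle markers (exact p = 0.00198 and 0.000397, adjusted 0.0262 and 0.0131), and without the pair of libraries farthest from the median, r was 0.97 and 0.93. It was the 1 cadherin of 6 with a mean under 1 RPM.

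**Figure D4:**
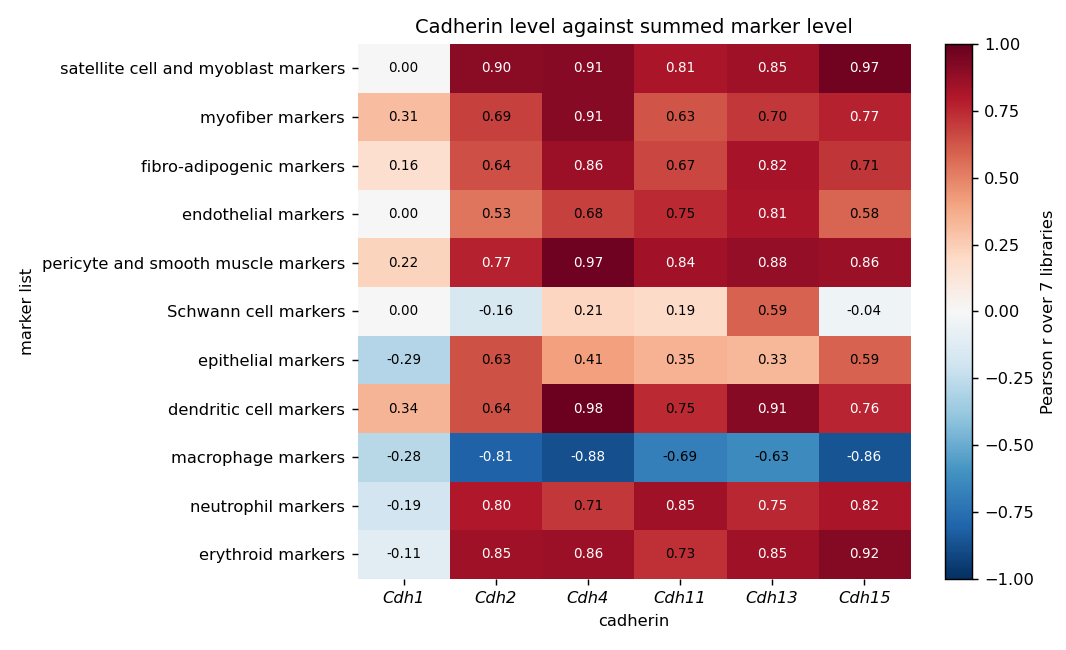
Pearson's r over 7 libraries between each cadherin and the summed level of each marker list, both as log2(RPM + 1). Red is positive and blue negative. The column of Cdh1 stays between -0.29 and 0.34, whereas the other 5 cadherins have positive values with most lists and negative ones with the macrophage markers, from -0.63 to -0.88.

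All relations share the scale of the library, since RPM sum to a fixed total. The r with the macrophage markers was negative for all 6 cadherins, from -0.28 for Cdh1 to -0.88 for Cdh4, and only that of Cdh4 passed after adjustment (exact p = 0.00476, adjusted 0.0349; rho -0.85, adjusted 0.0698; r = -0.72 without NC1 and NC3). Of the 15 relations with an adjusted p of r under 0.05, 7 were of Cdh4, 3 of Cdh15, 2 of Cdh2, 2 of Cdh13 and 1 of Cdh11. For 4 of them rho passed too, those of Cdh2 and Cdh15 with the satellite markers, of Cdh4 with the pericyte and smooth muscle markers and of Cdh11 with the neutrophil markers. With median-of-ratios scaling 5 of 66 relations passed.

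The genes most like each cadherin were sought among the 8226 genes whose mean reached 10 RPM, by r of log2(RPM + 1) over the 7 libraries, as a description with no test. Cdh4, with a mean under 1 RPM, was left out of this. For Cdh2 they were Chrnd (r = 0.998), the delta subunit of the muscle acetylcholine receptor, Cenpm (0.997), a centromere protein, and Cit (0.995), a kinase of cytokinesis. For Cdh15 they were Peg3 (0.996), Six4 (0.994), a homeobox factor of muscle precursors, and Dusp10 (0.993), a phosphatase of stress kinases. So many genes ran in this order that r exceeded 0.9 for 6.94% of the candidates with Cdh2 and for 7.12% with Cdh15. For Cdh13 the share was 3.03%, led by Bcam (0.99), Actr8 (0.99) and Mtmr2 (0.99), and for Cdh11 it was 0.292%, led by Nln (0.98), Ddx56 (0.97) and Guk1 (0.95). For Cdh1 it was 0.535%, led by Fbxl20 (0.98), Rbmxl1 (0.98) and Heca (0.97). The range of these 3 over the libraries was much narrower than that of Cdh1: Fbxl20 had 33.6 to 66.1 RPM in normocapnia and 26.2 to 34.2 RPM in hypercapnia.

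Genes that work with cadherins were examined in lists. Of 136 measured genes in 8 lists, 1 was called higher and 2 were called lower in hypercapnia, 2.21% against the 2.57% of all genes. After adjustment over all genes 0 passed. An unadjusted p under 0.05 in limma was found for 5 of the 136 and for 4.66% of all genes. The share depended on the tool, with 11 of 136 or 8.09% called in edgeR without a filter, against 4.38% of all genes, and 14 of 127 or 11% in DESeq2, against 6.25%. The lists had median log2 differences of -0.17 to 0.37, where the median of all genes was 0.02. No one of the 37 other cadherins, desmosomal cadherins, calsyntenins and Fat, Dachsous and Celsr genes passed (median 0.04), nor of the 15 catenins and actin linkers (-0.17), the 11 repressors of Cdh1 transcription (0.07), the 22 myoblast adhesion and fusion partners (0.01) or the 10 heterophilic ligands and receptors (0.27). Of the 37 other cadherins only 12 had a mean of at least 1 RPM, and the median of these was 0.46. One gene each passed of the 16 shedding proteases (median 0.20), the 20 trafficking genes (0.06) and the 5 nectins (0.37).

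Nectin1 encodes an adhesion protein that seeds junctions before cadherins gather in them. It was lower in hypercapnia, at 36.4, 34.5 and 29.6 RPM in NC1 through NC3 and 6.21, 8.84, 24.2 and 19.7 RPM in HC1 through HC4, with no overlap between the groups. The log2 difference was -1.31 with an SE of 0.49 (limma, adjusted p = 0.915). The call was kept in 10 of 16 alternative fits, with values of -1.60 to -0.99. The other nectins gave log2 differences of 0.39 (Nectin2, SE 0.66), 0.37 (Nectin3, SE 0.82), 1.02 (Nectin4, SE 0.45) and -0.03 (Pvr, SE 0.37). The signs of Nectin2, Nectin3 and Pvr turned in some fits with 1 library left out, while Nectin4 kept between 0.65 and 1.35.

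Rab5a, the small GTPase of early endosomes through which cadherins are taken up, was lower in hypercapnia. It had 89.2, 99.6 and 148 RPM in normocapnia and 69.7, 61.4, 72.6 and 64.0 RPM in hypercapnia, with groups apart, and a log2 difference of -0.70 with an SE of 0.19 (limma, adjusted p = 0.836). The call was kept in 14 of 16 alternative fits. Aph1c, a subunit of γ-secretase, which cleaves the cadherin stump after shedding, was higher. It had 8.48, 11.4 and 4.75 RPM in normocapnia and 15.8, 23.7, 13.8 and 11.5 RPM in hypercapnia, where the closest libraries of the groups differed by less than 1%, and a log2 difference of 0.92 with an SE of 0.35 (limma, adjusted p = 0.915). Its call was kept in 7 of 16 alternative fits.

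Apart from Nectin1, the most abundant genes of each list gave values with no call. The highest was Cdc42, a GTPase of the actin cytoskeleton, with 1787, 1808 and 3259 RPM in normocapnia and 2345 to 2832 RPM in hypercapnia, a log2 difference of 0.19 with an SE of 0.24. Ctnnb1 (β-catenin) was at 456, 254 and 62.6 RPM in NC1 through NC3 and at 312 to 361 RPM in hypercapnia, a log2 difference of 0.76 with an SE of 0.67. With 1 library left out this difference ran from -0.05 to 1.37. Ctnna1 (α-catenin) was at 197, 142 and 355 RPM and at 104 to 147 RPM, a difference of -0.79 with an SE of 0.34, and of the normocapnia libraries only NC2 lay within the hypercapnia range. Vcl (vinculin), which strengthens the link to actin under tension, gave -0.31 with an SE of 0.24. Cdh5, the cadherin of endothelial junctions and on the chromosome the next gene after Cdh11, had 41.6, 20.2 and 10.5 RPM in normocapnia and 17.3, 8.04, 81.7 and 74.8 RPM in hypercapnia, high in HC3 and HC4 as were the endothelial markers. Zeb2, a repressor of Cdh1, had 364, 644 and 1120 RPM in NC1 through NC3 and 398 to 471 RPM in hypercapnia, a difference of -0.57 with an SE of 0.38. Mmp9, a protease that can shed cadherins, reached 1377 RPM in NC2, the library with the most Cdh1, and lay between 158 and 295 RPM in the other 6. Itgb1, the β1-integrin subunit, had 466 to 640 RPM in normocapnia and 348 to 441 RPM in hypercapnia, a log2 difference of -0.55, which is under the fold limit. Cd9, a tetraspanin of myoblast fusion, gave -0.19 with an SE of 0.58.

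Fgfr1, a receptor that Cdh2 can bind, had 348, 155 and 126 RPM in NC1, NC2 and NC3 and 56.3, 57.4, 156 and 155 RPM in HC1, HC2, HC3 and HC4, a log2 difference of -1.002 with an SE of 0.59. HC1 and HC2 lay below all normocapnia libraries, and HC3 and HC4 lay among them. Ap1b1, a subunit of the adaptor that sorts cargo at the Golgi, had 367, 567 and 216 RPM in normocapnia and 875, 996, 438 and 542 RPM in hypercapnia, a difference of 0.92 with an SE of 0.45. The endocytic genes Picalm and Pip5k1c gave 0.0040 and -0.10, and Ncstn and Mmp14 of the shedding list gave 0.23 and 0.03. The Cdh1 repressors Ctbp1 and Tcf4 gave 0.25 and -0.07 (SE 0.43 and 0.31), and the receptors Lrp6 and Adipor1 gave -0.03 and 0.55 (SE 0.23 and 0.61). With 1 library left out Adipor1 ran from -0.20 to 0.97. Of the other cadherins, Clstn1 gave 0.54 with an SE of 0.66 and Fat1 0.44 with an SE of 0.81.

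**Figure D5:**
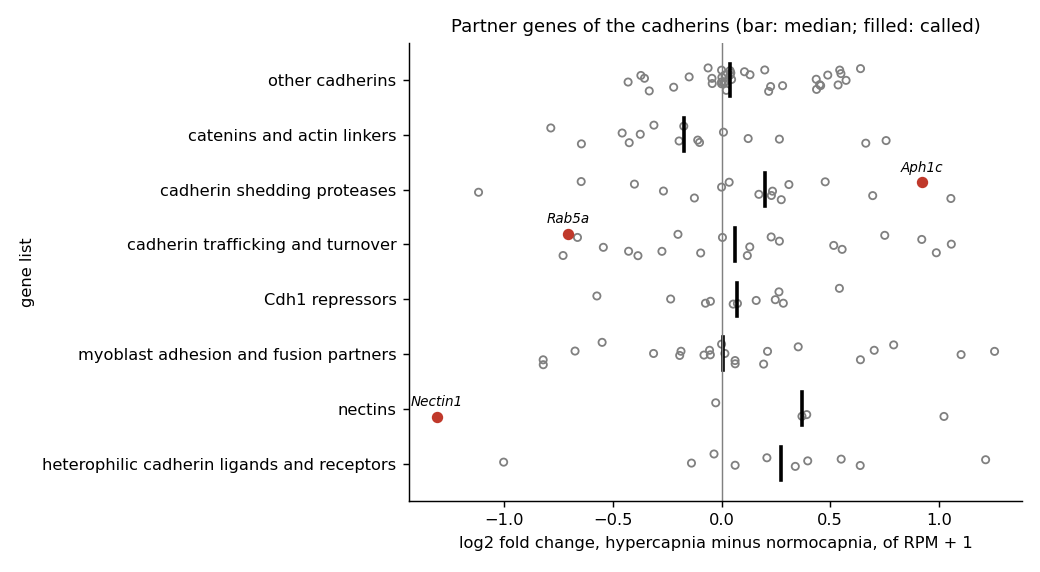
Log2 fold change of RPM + 1, hypercapnia minus normocapnia, of the 136 measured partner genes in 8 lists, with 1 circle a gene and a black bar at the median of the list. The 3 filled circles are the called genes: Nectin1 and Rab5a to the left, Aph1c to the right.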

How the data were processed

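Per the labels and the methods, total RNA of sorted cells was made into Ion AmpliSeq Transcriptome Mouse libraries, with 1 amplicon per gene, and read on an Ion S5 instrument; the submitters' processing notes name the Transcriptome Analysis Console. The authors deposited RPM, reads of each amplicon scaled to 1000000 reads assigned to the panel. The aligner is not given in the sources used here, nor is the genome build. Groups and numbers came from the sample titles. The table's title carries a note of 40 hours that the methods do not explain for these cells.

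Whole reads were recovered from the RPM (100% of values within 0.05 read of a whole number, 2443 genes at 0 throughout). Members, gene lists and naming rules were chosen with earlier results of these data known; ratios and pairs of members were added after values were seen. The text names the 6 cadherins, called and most abundant genes of the partner lists, defining markers, and the 3 genes nearest each cadherin with a mean of at least 1 RPM. Krt5, Krt14, Epcam, Cd209a, Adgre1, Mmp8 and Cspg4 were picked outside this rule, after their values were seen.

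limma 3.58.1 (R 4.3.3) was fitted to log2(RPM + 1) over 23930 genes without a filter. A pseudocount of 1 RPM understates the change of low genes. Alternatives were pseudocounts of 0.1 and 5 RPM, a mean of at least 1 RPM, median-of-ratios and quantile scaling, edgeR 4.0.16 and DESeq2 1.42.0 on whole reads, a replicate block, and each library left out. Sums and correlations used exact permutation tests with Benjamini-Hochberg adjustment. Fits and read recovery were tested on simulated data.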

Additional observations from a re-analysis of the deposited data

Results flagged for a closer look

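Of 20 values examined in the hypercapnia group, 1 stood out. In Cdh11 the log2(RPM + 1) of HC3 was far from the other 3 hypercapnia libraries, with a gap of 0.922 of the whole range of the group above Dixon's critical value for 4 samples at the 95% level. HC3 held 76 reads of Cdh11, or 4.75 RPM, against 1.46 to 1.63 RPM in HC1, HC2 and HC4. Chance marks about 1 in 20 groups of 4 libraries. This rate is per group and cannot be set against 1 of 20 values. The 3 normocapnia libraries were too few for this test.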

How the results depend on the processing

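The difference of Cdh1 kept its sign in every fit run, with values of -2.53 to -1.24 when 1 library was left out, -1.18 with a pseudocount of 5 RPM, -2.29 with 0.1, -2.84 in DESeq2 and, in edgeR, -2.81 with a filter and -2.83 with none, and its call was lost under the replicate block (-1.91). The number of called cadherins was 1 of 6, 0 under the block, and 0 to 2 with 1 library left out, the 2 being Cdh2 and Cdh15 without NC1. The other differences ran, with 1 library left out, from 0.57 to 2.90 (Cdh2), -0.57 to 0.12 (Cdh4, above 0 without NC1), -0.20 to 0.43 (Cdh11, -0.14 without NC3), -1.13 to 0.35 (Cdh13, above 0 without NC1) and -0.050 to 2.63 (Cdh15). Cdh15 turned negative on whole reads, at -0.76 and -0.80 in edgeR with and without a filter and -0.80 in DESeq2, which gave no p for it or for Cdh2. Cdh2, at 1.39 in limma, was 0.089 and 0.058 in edgeR with and without a filter and 0.054 in DESeq2, Cdh4, at -0.27, was -1.14 in edgeR without a filter and -1.13 in DESeq2, and Cdh11 was -0.23 after quantile normalization. The cause was not tested.

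The count of called genes was 615 in all, 1049 in edgeR without a filter, 1304 in DESeq2, and 376 to 1990 with 1 library left out. Of the 615, 343 were higher and 272 lower; the split was 336 to 357 after quantile normalization, 294 to 508 in edgeR with a filter and 235 to 381 without NC3. Over genes with a mean of 1 RPM and above, the median log2 difference was 0.16, and 0.04 and -0.01 after median-of-ratios and quantile scaling. Of the partner genes 3 were called (2.21%, against 2.57% of all genes), 5 after quantile normalization (3.68% against 2.9%), 8 in edgeR with a filter (7.69% against 6.03%), 11 with none (8.09% against 4.38%), 14 in DESeq2 (11% against 6.25%) and 7 under the block (5.15% against 2.5%). With 1 library left out it was 1 to 15, the 15 without NC1 (11% against 8.32%). Relations with an adjusted p of r under 0.05 numbered 15 of 66, 5 with median-of-ratios scaling and 0 to 6 with 1 library left out. The last counts are no measure of stability, since an exact test over fewer libraries has a larger smallest p. Marker lists with groups apart numbered 0, and 0 to 1 with 1 library left out.

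The r between deviations from the group mean was -0.35 for NC1 and HC1, 0.50 for NC2 and HC2 and -0.04 for NC3 and HC3. NC2 and HC1, with different numbers, gave 0.45. These values cannot show whether the numbers pair the samples, and the block left 598 called genes. Depth limits Cdh4, with at most 36 reads, and Cdh11, with 16 to 81. In hypercapnia Cdh1 was about as shallow, at 28 to 42 reads, against 24 to 76 for Cdh11. Cdh2, Cdh13 and Cdh15 rest on 70 reads or more in every library.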
